A study of Mus musculus with 4 samples.

Results

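Kupffer cells are the macrophages that live in the blood sinusoids of the liver. They were followed here through 8 genes used as their markers: Cd163, Vsig4, Marco, Clec4f, Cd5l, Timd4, Adgre1 and Csf1r. A gene was included when a non-control probe carried its name, or its current symbol through the probe's transcript accession. The array names 27669 genes, and all 8 of the Kupffer cell genes had at least 1 probe; 7 of them were among the 18044 genes that could be tested, and Timd4 was not. Whole livers came from male C57BL/6 mice kept on a high-fat diet. One group of 4 mice received a scrambled control antisense oligonucleotide (ASO, a short synthetic strand that pairs with a transcript and lowers its amount), and the other 4 mice are labelled as having received a Plin2 ASO. Both groups were given 25 mg/kg by intraperitoneal injection, 2 times a week over 4 weeks, and neither an untreated group nor a group on another diet was analysed here. Each of 4 arrays with 2 colours compared the liver of 1 control mouse (red dye, Cy5; mice 1, 2, 4 and 5) with the liver of 1 mouse labelled Plin2-ASO (green dye, Cy3; mice 6, 7, 9 and 10).

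Kupffer cells settle in the liver before birth and renew themselves there, with support from CSF1 and from signals of the neighbouring endothelial and stellate cells. They remove bacteria, dying cells, complement-coated particles and haemoglobin from portal blood, and several of the receptors that do so are the markers studied here. When resident cells are lost, or when fat accumulates in the liver, monocytes enter and become macrophages. These share the general macrophage genes but gain Timd4 late or not at all. Clec4f is close to specific for Kupffer cells in the mouse, Vsig4, Marco, Cd5l and Timd4 mark mature resident cells, Cd163 is found on several resident macrophages, and Adgre1 and Csf1r are shared by macrophages in general.

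Each value below comes from probes of 60 bases, and the first 30 bases of the probes of 7 of the genes are printed to identify these probes. Positions are the intervals that the array files give for the probes, in mouse build mm7; no exon annotation of that build was used here. Adgre1 carries its older name Emr1 in the files and had 2 probes, of which the first listed is the brighter and was used for the gene.
Cd163, chr6:124312766-124312825, plus strand: cagtgcatcatgtccaaatatgacatgtcc
Vsig4, chrX:91575173-91575232, minus strand: aagacaagcaactctgaagaaaccacaagg
Marco, chr1:120342087-120342147, minus strand: gagcccgagaggtcatcagtgtgtccccag
Clec4f, chr6:83670672-83670730, minus strand: aactggagacataggaacggagagcgagaa
Cd5l, chr3:87483753-87483812, plus strand: atggtagagacttgaggagttgggacctcg
Timd4, chr11:46800424-46800483, plus strand: acttcttttcacattcaagtttctttaaag
Adgre1, chr17:55686649-55686708, plus strand: ttgtgtttcctatgcactttcttgtggtgt
Adgre1, chr17:55613754-55613813, plus strand: cctggctttgcatctagcaatggacagctg

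The livers differed in signal in ways that the groups do not explain. The median spot signal ran from 244 to 499 in green and from 256 to 637 in red, over local backgrounds of 55.0 to 58.5 and 62.0 to 63.5, and no spot was saturated. Array 3 (mice 4 and 9) stood apart: across genes, which are not independent replicates, its ratios had a mean correlation of 0.33 with those of the rest, where the rest had 0.51 to 0.65, and 7.61% of its spots were marked as outliers, where no other array exceeded 3.83%. The ratios also correlated with the GC content of the probes, at 0.06, 0.08, -0.28 and 0.26 on arrays 1 to 4. Hepatocyte genes were bright in every liver, with list medians of 15.55 to 16.25 log2 units. Precision is limited throughout by having 4 arrays.

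Plin2, the gene the oligonucleotide is meant to lower, did not fall in the mice labelled Plin2-ASO. Its log2 ratios were 0.24, 0.15, 0.83 and 0.36 on arrays 1 to 4, a mean of 0.40 ± 0.15 (SE, n = 4; adjusted p = 0.155 by limma). Log2 signals of 13.71, 13.73, 13.49 and 13.34 in the control livers overlapped with 13.96, 13.89, 14.32 and 13.71 in the livers labelled Plin2-ASO. Where the probe lies relative to the bound site is not stated. Positive log2 ratios stand for more signal in livers labelled Plin2-ASO than in control livers; exchanged dyes or labels would mirror every direction below. Because all 4 arrays had the same dye orientation, a dye effect of a single probe and a difference between the groups cannot be told apart.

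The Kupffer cell genes did not move together. In the livers labelled Plin2-ASO, Cd163, Vsig4, Marco and Clec4f were 5.15-fold to 8.46-fold higher, Cd5l and Csf1r were 2.02-fold and 1.93-fold lower, and Adgre1 did not pass the test. Thus 4 of the 7 genes tested were called higher and 2 lower by limma with Benjamini-Hochberg adjustment over all genes at 0.05, where 3.69% of all genes tested were called higher and 6.08% lower. Timd4, the eighth gene, was too dim for the test and read higher on all 4 arrays. In whole liver, fewer cells of a type and less RNA per cell cannot be told apart. Where groups are said below not to overlap, the share of all genes that separate in this way is not given. The sentences on overlap therefore describe the values only.

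**Figure D1:**
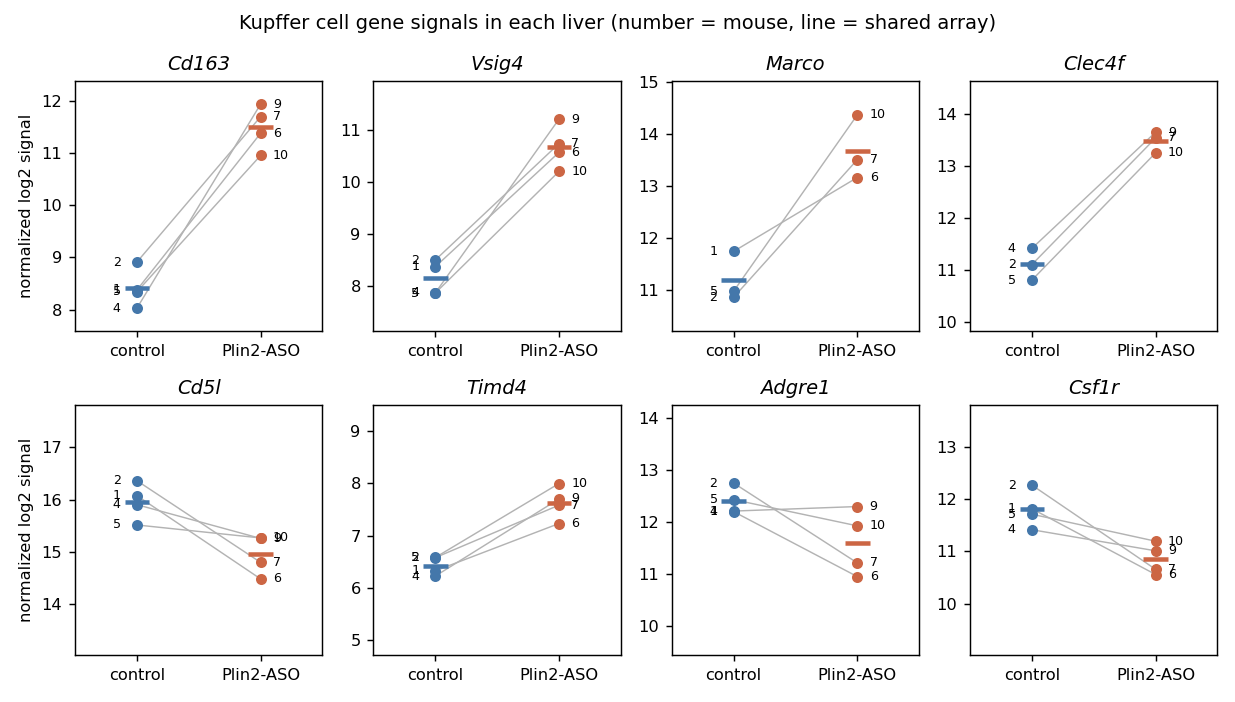
Normalized log2 signal (y axis, 1 panel per gene, each with its own range) of the 8 Kupffer cell genes in control livers and livers labelled Plin2-ASO (x axis); each point is 1 liver with its mouse number, each line joins the 2 livers of an array and the short bars are group means. The groups do not overlap for Cd163, Vsig4, Marco, Clec4f and Timd4 (higher) and for Cd5l and Csf1r (lower), while those of Adgre1 overlap. The share of all genes whose groups do not overlap is not given here.

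Scavenger receptors come first. Cd163 takes up haptoglobin-bound haemoglobin. Its log2 signal was 8.38, 8.91, 8.03 and 8.34 in control mice 1, 2, 4 and 5 and 11.38, 11.70, 11.94 and 10.96 in mice 6, 7, 9 and 10. The dimmest of the livers labelled Plin2-ASO was thus above the brightest control liver by far more than the spread within either group, whose means were 8.41 ± 0.37 and 11.49 ± 0.43 (SD, n = 4 each). The mean log2 ratio was 3.08 ± 0.22 (SE, n = 4; 95% interval 2.56 to 3.60), or 8.46-fold higher, with an adjusted p of 0.00143 by limma. Array 3 gave the highest of the 4 ratios, 3.91 against 2.61 to 3.01 on the others, and the mean without it was 2.80.

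Marco, a class A scavenger receptor that binds bacteria and oxidised lipoproteins, was measured on 3 arrays because the scanning software marked its spot on array 3 as an outlier. The control livers read 11.74, 10.86 and 10.98 log2 units in mice 1, 2 and 5, and the livers labelled Plin2-ASO read 13.16, 13.50 and 14.36 in mice 6, 7 and 10. Again no liver of either group reached the other group. The size of the difference varied more than for the other 3 genes that rose, from 1.42 on array 1 to 3.38 on array 4. Its mean log2 ratio was 2.48 ± 0.36 (SE, n = 3; 95% interval 1.61 to 3.35), 5.58-fold higher, with an adjusted p of 0.0124 by limma. The marked spot, when kept, gave a ratio of 3.08 on array 3. Marco was no longer called without array 2 (adjusted p = 0.0728 by limma, the highest of a range that began at 0.000289 over 19 alternatives).

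Vsig4, the complement receptor CRIg, lets Kupffer cells capture particles coated with C3 fragments. Log2 signals in the control livers were 8.38, 8.51, 7.87 and 7.87 in mice 1, 2, 4 and 5, against 10.57, 10.74, 11.21 and 10.20 in mice 6, 7, 9 and 10. Every liver labelled Plin2-ASO was brighter than every control liver. Group means were 8.16 ± 0.33 and 10.68 ± 0.42 (SD, n = 4 each), and the log2 ratio averaged 2.52 ± 0.21 (SE, n = 4; 95% interval 2.02 to 3.02), 5.75-fold higher with an adjusted p of 0.00172 by limma. On array 3 the ratio was 3.33, against 2.19 to 2.33 on the other 3 arrays, and the mean without that array was 2.25.

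Clec4f is a C-type lectin that binds galactose-ended sugars and, in the mouse, is the marker closest to Kupffer cells alone. It was measured on arrays 2 to 4, since its spot on array 1 was marked as an outlier. Control mice 2, 4 and 5 read 11.10, 11.41 and 10.81 log2 units and mice 7, 9 and 10 read 13.53, 13.64 and 13.25. The 3 differences were close to each other, at 2.43, 2.23 and 2.44, and the marked spot, when kept, gave 2.26. Their mean was 2.37 ± 0.15 (SE, n = 3; 95% interval 1.99 to 2.74), 5.15-fold higher, with an adjusted p of 0.00147 by limma. Of the 4 genes that rose, Clec4f had the smallest spread between arrays, with an SD of 0.12 against 0.54 to 0.99 for the other 3.

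Cd163, Vsig4, Marco and Clec4f rose together, so their promoters are printed, with that of Cd5l, a Kupffer cell gene that went the other way. RefSeq's promoter table of build GRCm38.p6 held entries for 6 of the 8 genes, and each sequence below is the 250 bases before the annotated start, read in the direction of the gene. Capitals mark the core letters bound by PU.1 (product of Spi1, the factor that sets up macrophage promoters), searched as GAGGAA and, on the other strand, TTCCTC.
Cd163, chr6:124304401-124304650, plus strand: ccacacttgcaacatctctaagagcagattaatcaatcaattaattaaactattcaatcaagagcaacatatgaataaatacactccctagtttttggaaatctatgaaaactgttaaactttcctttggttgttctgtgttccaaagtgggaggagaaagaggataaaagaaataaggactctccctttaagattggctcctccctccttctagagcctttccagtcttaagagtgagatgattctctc
Vsig4, chrX:96293439-96293688, minus strand: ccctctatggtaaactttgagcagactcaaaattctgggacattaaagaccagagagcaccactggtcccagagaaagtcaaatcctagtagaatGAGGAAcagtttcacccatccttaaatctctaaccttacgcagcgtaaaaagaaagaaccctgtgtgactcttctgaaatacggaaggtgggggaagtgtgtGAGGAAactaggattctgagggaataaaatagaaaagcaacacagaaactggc
Marco, chr1:120505025-120505274, minus strand: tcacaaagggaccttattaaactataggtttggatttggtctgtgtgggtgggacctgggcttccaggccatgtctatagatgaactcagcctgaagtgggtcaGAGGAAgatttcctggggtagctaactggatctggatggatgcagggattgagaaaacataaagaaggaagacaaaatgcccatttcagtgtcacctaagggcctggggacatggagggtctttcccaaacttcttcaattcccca
Clec4f, chr6:83656117-83656366, minus strand: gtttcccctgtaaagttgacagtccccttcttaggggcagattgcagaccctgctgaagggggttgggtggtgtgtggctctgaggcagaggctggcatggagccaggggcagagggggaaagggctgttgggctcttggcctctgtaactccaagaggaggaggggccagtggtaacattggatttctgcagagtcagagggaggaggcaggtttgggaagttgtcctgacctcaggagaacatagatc
Cd5l, chr3:87357631-87357880, plus strand: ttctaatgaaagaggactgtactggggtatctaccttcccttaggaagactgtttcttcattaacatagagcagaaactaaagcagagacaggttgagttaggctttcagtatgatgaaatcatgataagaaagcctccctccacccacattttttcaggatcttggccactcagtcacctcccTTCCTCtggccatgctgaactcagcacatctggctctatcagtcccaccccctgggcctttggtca

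The core letters stood in the promoters of Vsig4, at 155 and 53 bases before the start, Marco, at 146 bases, and Cd5l, on the opposite strand at 66 bases. They were not in these windows of Cd163, Clec4f or Timd4. A match was thus found in 3 of the 6 promoters searched, and 23.3% of 32817 mouse promoters of the same length hold one. A match describes letters and is not evidence of binding, and the genes with a match include 2 that rose and 1 that fell.

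Cd5l (AIM) is a secreted protein of the scavenger receptor cysteine-rich family that macrophages release into blood, and its transcription depends on the oxysterol receptor LXR. In control mice 1, 2, 4 and 5 its log2 signal was 16.08, 16.36, 15.90 and 15.51, and in mice 6, 7, 9 and 10 it was 14.48, 14.80, 15.25 and 15.26. The groups did not overlap, but the gap between the dimmest control liver and the brightest of the livers labelled Plin2-ASO was smaller than the SD within either group (0.36 and 0.38, n = 4 each). The ratios were -1.60 and -1.57 on arrays 1 and 2 and -0.65 and -0.25 on arrays 3 and 4. On average Cd5l fell by 1.02 ± 0.25 on the log2 scale (SE, n = 4; 95% interval -1.60 to -0.43), 2.02-fold lower, with an adjusted p of 0.0470 by limma. That call was lost without array 1 or array 2 (adjusted p = 0.229 and 0.210 by limma, in a range of 0.000258 to 0.229 over 19 alternatives).

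Timd4 (TIM-4) binds phosphatidylserine on dying cells and marks long-lived resident macrophages. Its probe was not well above background in any control liver and was so in 2 of the 4 livers labelled Plin2-ASO, those of mice 9 and 10, so it did not pass the filter. Uncorrected spot signals were 108, 93.2, 119 and 86.2 in control mice 1, 2, 4 and 5, over local backgrounds of 61.5 to 64.0, and 169, 213, 173 and 329 in mice 6, 7, 9 and 10, over 55.5 to 59.5. All 4 ratios were positive, at 0.91, 1.01, 1.48 and 1.42, but with control signals near background their size is uncertain. With the control livers set at the lowest signal that counts as well above background, the mean level in the livers labelled Plin2-ASO was 1.40-fold higher. That mean includes mice 6 and 7, whose signals were not well above background, so the value is not a strict lower bound. In a fit with no filter on dim probes Timd4 was called higher (adjusted p = 0.00877 by limma, n = 4), from these same dim signals. No other alternative tested it.

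Adgre1 encodes an adhesion receptor of the GPCR family carried by most mouse tissue macrophages. The brighter of its 2 probes read 12.20, 12.75, 12.21 and 12.43 log2 units in control mice 1, 2, 4 and 5 and 10.96, 11.22, 12.30 and 11.93 in mice 6, 7, 9 and 10. The groups overlapped: mouse 9 lay above control mice 1 and 4. Ratios were -1.25 and -1.53 on arrays 1 and 2 and 0.09 and -0.50 on arrays 3 and 4, and the mean of -0.80 ± 0.27 (SE, n = 4; 95% interval -1.42 to -0.18) did not pass the test (adjusted p = 0.107 by limma). Without array 3 the mean was -1.09 and passed (adjusted p = 0.00435 by limma), and over 19 alternatives the adjusted p ran from 0.000296 to 0.392. The second probe lies upstream in the gene and was dimmer. It read 8.84, 8.56, 8.67 and 8.61 in the control livers and 8.25, 8.71, 8.68 and 8.54 in the others, so its groups overlapped, and its mean ratio was -0.13 ± 0.16 (SE, n = 4; adjusted p = 0.651 over 25843 probes by limma).

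Csf1r is the receptor for CSF1 and IL-34, on which macrophages depend to survive. Its 3 probes lie on the plus strand of chromosome 18 in mm7, at 61520169 to 61520228 (the brightest, used for the gene), 61499207 to 61499266 and 61519183 to 61519543. The brightest probe read 11.82, 12.27, 11.42 and 11.72 log2 units in control mice 1, 2, 4 and 5 and 10.56, 10.66, 11.01 and 11.20 in mice 6, 7, 9 and 10. Every control liver was brighter than every liver labelled Plin2-ASO, most clearly on arrays 1 and 2 (ratios of -1.26 and -1.62, against -0.40 and -0.52). Csf1r fell by 0.95 ± 0.22 on the log2 scale (SE, n = 4; 95% interval -1.48 to -0.42), 1.93-fold lower, with an adjusted p of 0.0423 by limma. The call did not survive without array 1, 2 or 4 (adjusted p = 0.212, 0.188 and 0.0598 by limma, in a range of 0.000171 to 0.212 over 19 alternatives).

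The other 2 Csf1r probes gave smaller differences. The one at 61499207 had ratios of -0.58, -0.73, -0.40 and -0.48, a mean of -0.55 ± 0.13 (SE, n = 4; adjusted p = 0.0396 over all probes by limma). The one at 61519183 had ratios of -1.09, -0.75, -0.58 and 0.00, a mean of -0.61 ± 0.19 (SE, n = 4; adjusted p = 0.0871 by limma). For both of these probes the signals of the groups overlapped, although no array gave a clearly positive ratio.

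**Figure D2:**
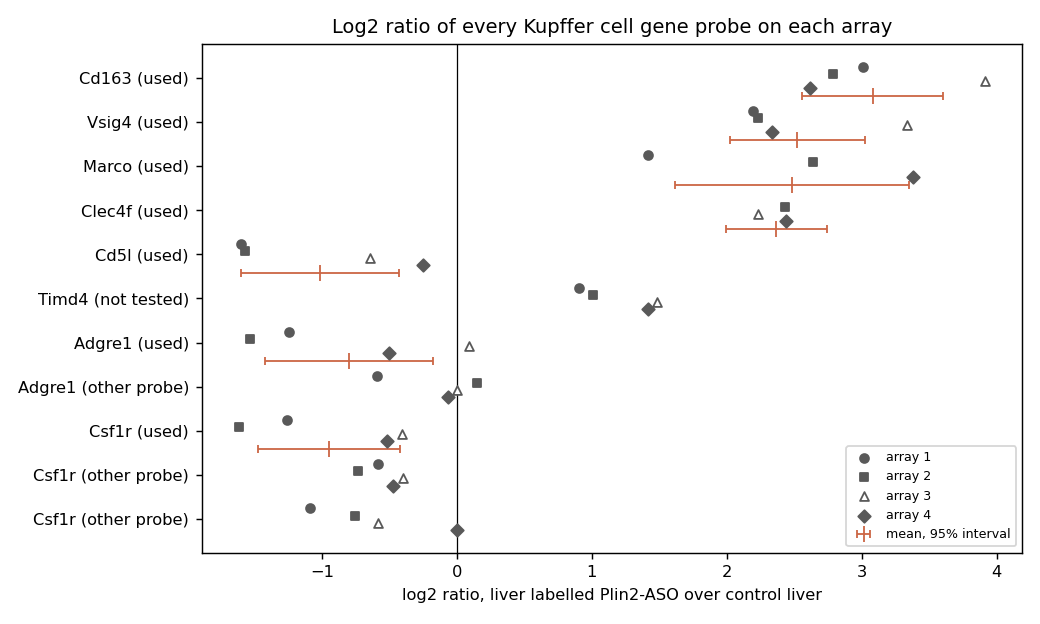
Log2 ratio of livers labelled Plin2-ASO over control livers (x axis) for each probe of the 8 Kupffer cell genes (y axis); each symbol is 1 array, open triangles are array 3, and the bars under the probes used for a gene give the limma mean with its 95% interval. The intervals of Cd163, Vsig4, Marco and Clec4f start at 1.61 or higher, and those of Cd5l, Csf1r and Adgre1 lie below 0, with the other Adgre1 probe centred near 0 at -0.13.

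Within each array the resident markers were also set against the mean ratio of Adgre1 and Csf1r, the pair shared by macrophages in general. This is a description with no test, and shows only that genes changed unequally. Relative to that pair, Cd163 stood 3.95 ± 0.57 log2 units higher and Vsig4 3.40 ± 0.40 (SD, n = 4 each), with Marco at 3.59 ± 0.81 and Clec4f at 3.11 ± 0.82 (SD, n = 3 each). On each array where they were measured, these 4 genes exceeded the pair by at least 2.39 log2 units. Timd4 was left out, since its control signals were not well above background. Cd5l did not separate from the pair: its difference was -0.34, 0.01, -0.49 and 0.26 on arrays 1 to 4, a mean of -0.14 ± 0.34 (SD, n = 4).

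**Figure D3:**
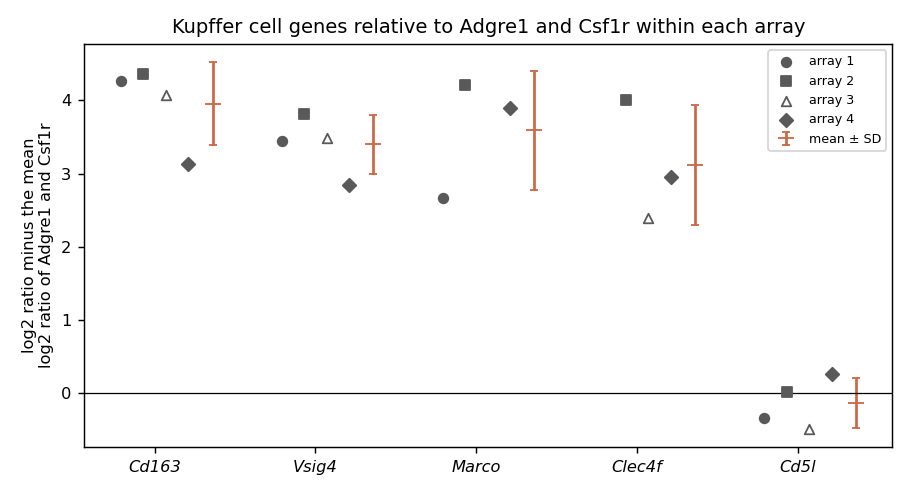
Log2 ratio of each gene minus the mean log2 ratio of Adgre1 and Csf1r on the same array (y axis, log2 units) for 5 Kupffer cell genes (x axis); symbols are arrays and bars are the mean ± SD over 4 arrays (3 for Marco and Clec4f). Cd163, Vsig4, Marco and Clec4f read 2.39 or more on every array that measured them, and Cd5l lies between -0.49 and 0.26.

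Profiles over the arrays could be compared for Cd163, Vsig4, Cd5l, Adgre1 and Csf1r, the 5 genes tested with a ratio on all 4 arrays; Marco, Clec4f and Timd4 were not included. The root mean square difference over the 4 arrays was 0.25 between Cd5l and Csf1r, 0.25 between Adgre1 and Csf1r and 0.43 between Adgre1 and Cd5l. It was 0.59 between Cd163 and Vsig4, and 3.34 to 4.16 for every pair of Cd163 or Vsig4 with Cd5l, Adgre1 or Csf1r. Among 12602 other genes that were measured on all arrays and carry a current symbol, leaving out RIKEN, clone, predicted and accession names, the profile of Csf1r was closest to those of Fli1 (0.07), Nrros (0.10) and Clec5a (0.11), and that of Adgre1 to Plcg2 (0.11), G6pdx (0.12) and Loxl1 (0.12). Cd5l lay nearest to C1qb (0.09), which encodes a chain of complement C1q made by macrophages, then to Slfn2 (0.12) and Melk (0.13). Vsig4 lay nearest to Ndufab1 (0.22), Dnajc1 (0.38) and Csrp3 (0.42), and Cd163 to Emc9 (0.49), Cyp2c54 (0.49) and Ndufab1 (0.55). These distances rest on 4 arrays and describe likeness of profile only.

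Further genes of Kupffer cell identity, a list of 18 of which 15 were tested, were also called in both directions. Of these, 3 rose and 2 fell, with a list median of -0.09 against -0.03 over all genes. Over all genes tested, 3.69% were called higher and 6.08% lower. Folr2, a folate receptor of resident macrophages, was 2.69-fold higher (log2 ratio 1.43 ± 0.19, SE, n = 4; adjusted p = 0.00720 by limma), with ratios of 1.13, 0.96, 1.98 and 1.64. C6, a complement component that mouse Kupffer cells transcribe, was 6.43-fold higher (adjusted p = 0.0103 by limma), and Fcna, the lectin ficolin A, 2.14-fold higher (adjusted p = 0.0377 by limma). Id3, a regulator needed for Kupffer cell development, fell by 0.85 ± 0.12 on the log2 scale (SE, n = 4; adjusted p = 0.00884 by limma), and the related Id1 fell by 1.38 (adjusted p = 0.0210 by limma). C6, Fcna and Id1 were named after their values were seen. C6 was lost without array 2 (adjusted p = 0.0524 by limma), Fcna without array 1, 2 or 4 (0.110, 0.0989 and 0.0849) and Id1 without array 1, 2 or 4 (0.122, 0.108 and 0.0679). Without array 1 or array 2 the list had 2 or 1 genes called higher and 0 lower, and without array 3 it had 5 of each. Of all genes, 0.80% and 0.91% were called higher without array 1 and array 2, and 1.15% and 1.24% lower. Without array 3 the shares were 12.4% higher and 20.3% lower. In either direction, 8 of the 15 had an unadjusted p under 0.05 without array 1 and again without array 2.

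**Figure D4:**
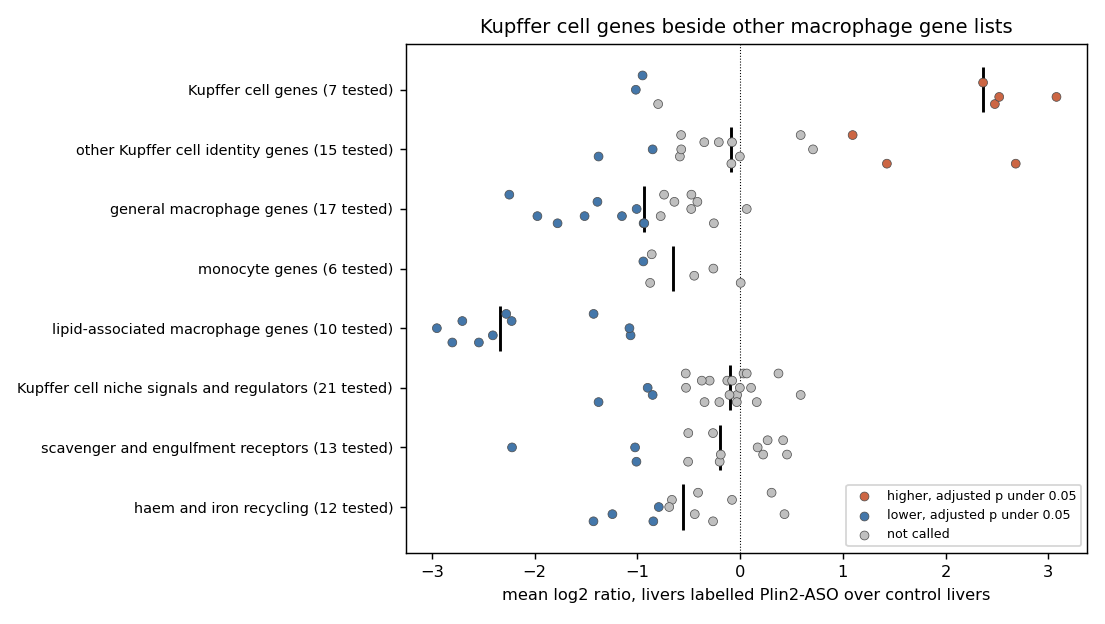
Mean log2 ratio (x axis) of each gene tested in 8 macrophage gene lists (y axis); each point is 1 gene, coloured where its limma adjusted p was under 0.05, and black bars are list medians. The Kupffer cell genes, shown without Timd4, split between 2.37 to 3.08 and -1.02 to -0.80, while all 10 lipid-associated genes tested lie below -1.06.

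General macrophage genes, by contrast, went down or did not pass. Of 17 tested, 9 fell, where 6.08% of all genes were called lower. The others did not pass, and the median was -0.93. Cd68, a lysosomal protein of phagocytes, fell by 1.78 ± 0.23 and Lyz2, their lysozyme, fell by 1.97 ± 0.32 on the log2 scale (SE, n = 4 each; adjusted p = 0.00598 and 0.0123 by limma). The count was 1 without array 1 and 2 without array 2, where 1.15% and 1.24% of all genes were called lower. Lyz2 was lost without array 1 (adjusted p = 0.0733 by limma, in a range of 2.67e-05 to 0.0733). Monocyte genes had 1 of 6 lower, Itgam, a chain of the integrin Mac-1 (log2 ratio -0.94 ± 0.20, SE, n = 4; adjusted p = 0.0325 by limma), and it passed neither without array 1 nor without array 2 or 4 (highest adjusted p = 0.170). All 10 of the lipid-associated macrophage genes tested fell, with a median of -2.34. Among them, Trem2, a lipid-sensing receptor, fell by 2.28 ± 0.18 and Gpnmb, a glycoprotein of lipid-loaded macrophages, fell by 2.71 ± 0.24 (SE, n = 4 each; adjusted p = 0.00147 and 0.00211 by limma), and 7 of the 10 were still called without array 1 or array 2.

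Genes that act on Kupffer cells, or beside Csf1r, were read next. Among 11 CSF1 receptor ligand and signalling genes, 3 fell and 2 rose, with a median of -0.44. Over all genes tested, 6.08% were called lower and 3.69% higher. The pair that rose, named after the values were seen, was Csf2rb and Grb2, but other probes of Csf2rb read -0.78 and -0.27. The ligands Csf1 and Il34 had ratios of -0.35 ± 0.20 and -0.33 ± 0.16 (SE, n = 4 each; adjusted p = 0.294 and 0.220 by limma). Spi1, which encodes PU.1, fell by 0.93 ± 0.18 and Maf, a transcription factor of resident macrophages, fell by 0.64 ± 0.13 on the log2 scale (SE, n = 4 each; adjusted p = 0.0229 and 0.0247 by limma). The other 3 probes of Maf read -0.45 to -0.18. Neither Spi1 nor Maf passed without array 1 or array 2, when 0 genes of the list did (5 had an unadjusted p under 0.05 in each case). Of all genes, 1.15% and 1.24% were then called lower. Of 21 niche signals and regulators, 3 fell, where 6.08% of all genes did, and the others did not pass. The 3 were Id1, Id3 and Tgfb1, the growth factor TGF-beta 1, which fell by 0.90 ± 0.14 (SE, n = 4; adjusted p = 0.0119 by limma). Without array 1 or array 2, Tgfb1 (adjusted p = 0.0999 and 0.0890 by limma) and Id3 (0.0828 and 0.0678) did not pass. Nr1h3, which encodes the LXR alpha receptor that maintains Kupffer cell identity, had a ratio of 0.00 ± 0.13 and Spic, a factor of iron-recycling macrophages, 0.59 ± 0.17 (SE, n = 4 each; adjusted p = 0.993 and 0.0765 by limma).

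Lists drawn up around the scavenger receptors Cd163 and Marco were read in the same way, where 6.08% of all genes were called lower. Of 13 other scavenger and engulfment receptors, 3 fell, with a median of -0.20. Cd36, a fatty acid and lipoprotein receptor, fell by 2.22 ± 0.34 and Stab1, a scavenger receptor of macrophages and endothelium, fell by 1.01 ± 0.19 on the log2 scale (SE, n = 4 each; adjusted p = 0.0103 and 0.0217 by limma). Stab1 was lost without array 1, 2 or 4 (highest adjusted p = 0.140). In haem and iron recycling, the process Cd163 feeds, 4 of 12 fell, with a median of -0.55. Hpx, the plasma haem carrier made by hepatocytes, fell by 1.24 ± 0.15 (SE, n = 3) and Fth1, the ferritin heavy chain, fell by 0.79 ± 0.14 (SE, n = 4; adjusted p = 0.00773 and 0.0152 by limma); both were lost without array 1 (adjusted p = 0.0793 and 0.118), and Fth1 without array 2 (0.0867).

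Markers of other liver cells were read in the same fit. Over all genes tested, 6.08% were called lower and 3.69% higher. Of 12 sinusoidal endothelial genes 1 fell, with list medians of -0.70, -0.63, 0.48 and -0.63 on arrays 1 to 4. Without array 3, 10 of the 12 were called lower, as were 20.3% of all genes. Without array 1, 2 or 4 the endothelial count was 0. Of 10 stellate cell genes 4 fell. T cell, natural killer cell, B cell, neutrophil and dendritic cell lists had at most 1 gene called, in each case lower, of 5 to 7 tested, and 2 of 8 hepatocyte and 2 of 5 cholangiocyte genes fell. The adipocyte list median reached 1.96 on array 3, with -0.17 to 0.20 elsewhere, and 1 of 5 was called higher, as was 1 of 3 erythroid genes. Array 3 was also where Cd163 and Vsig4 had their highest ratios; both were still called without it, with means of 2.80 and 2.25, as was Clec4f with 2.43, and the Marco value does not use that array. The part of these markers in the results was not tested.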

How the data were processed

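Liver RNA of 8 mice was read on 4 arrays of 2 colours, all on 1 slide. The mice are separate animals. Per the file headers, Feature Extraction 9.5.1.1 read the spots, and the deposited mean signal and local median background intensity of each spot were used. The deposited log10 ratio of each spot, red over green after the software's dye normalization, and the authors' deposited series table of log2 ratios, equal to it after conversion on all 41174 probes, served as alternatives with the sign turned. Directions follow the dyes that the labels name.

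In limma 3.58.1 (R 4.3.3, statmod 1.5.0, and version 1.17.8 of data.table), background was corrected by normexp (offset 50) and each array was normalized by loess with control spots at weight 0. Control spots were dropped, outlier spots left out and repeat spots averaged per probe. Probes well above background on at least 3 of 4 arrays in 1 channel were kept (27160), and a gene was its brightest kept probe measured on at least 3 arrays. Log2 ratios were tested with lmFit and eBayes (two-sided, 7.21 total degrees of freedom, Benjamini-Hochberg over 18044 genes, threshold 0.05). Levels per liver are log2 signals after loess and quantile adjustment of the mean signal between arrays (Aquantile); they are open to dye bias and are not compared between genes. Scripts were tested on simulated data.

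Probes were named through the RefSeq table of GRCm38.p6, used for names (22951 by the probe's accession, 124 by another accession, 6582 by symbol, 3077 by an older symbol, 8440 kept the file's name). The named genes are the 8 markers, Plin2, the 3 nearest profiles of each marker measured on all 4 arrays, and the 2 called genes of smallest p in 8 macrophage lists; others named are said to be chosen after their values were seen, or are ligands and regulators of the listed pathways, chosen likewise. The markers and lists were chosen with earlier results of these data known. The alternatives were 19 settings of background correction, normalization, filter, probe choice, model, threshold and arrays left out; relative values under these settings, and a test of every kept probe, were added after seeing the data.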

Additional observations from a re-analysis of the deposited data

Results flagged for a closer look

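The log2 ratio of Vsig4 on array 3 was 3.33, against 2.19 to 2.33 on the other arrays, a gap that is large for a group of 4. Of 30 sets of 4 values examined (levels and ratios of the Kupffer cell probes and Plin2 with no missing array), 1 stood out in this way, and chance marks about 1 in 20. In the array's livers, mouse 9 had the highest Vsig4 signal of its group (11.21 log2 units) and mouse 4 was close to the lowest of the control livers (7.87). Without array 3 the mean was 2.25 and Vsig4 was still called (adjusted p = 5.67e-05 by limma, in a range of 1.27e-06 to 0.0137 over 19 alternatives). The cause was not tested.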

How the results depend on the processing

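Cd163, Vsig4 and Clec4f were called higher under all 19 alternatives, with mean log2 ratios of 2.80 to 3.58, 2.25 to 3.09 and 2.28 to 2.49. Marco was called under all but 1 of them (2.03 to 3.01), so the count called higher ran from 3 to 4 with an array left out and was 5, with Timd4, when no filter was used. Of all genes, 0.80% to 12.4% were called higher with an array left out, and 2.41% with no filter. The count called lower was 2 in the reported fit. It was 1 with an offset of 16, with the strict filter and with a trended, robust eBayes, and 0 with the software's ratios, the series table, no filter or outlier spots kept, although all 7 genes then had an unadjusted p under 0.05 (8 of 8 with no filter); leaving out an array gave 0 to 3. Of all genes, 5.60% to 5.89% were called lower with an offset of 16, the strict filter or the trended eBayes. The share was 3.83% to 4.94% with the software's ratios, the series table, no filter or outlier spots kept. It was 1.15% to 20.3% with an array left out. Adgre1 joined the genes called lower with array quality weights or without array 3, where 23.5% and 20.3% of all genes were called lower. Means ranged from -1.36 to -0.82 for Cd5l, -1.24 to -0.70 for Csf1r and -1.19 to -0.46 for Adgre1, and no gene's mean changed sign. Vsig4 relative to Adgre1 and Csf1r was 4.03 with the software's ratios or the series table. Over the whole array 1762 genes were called, 7054 with array weights, 2998 at an adjusted p of 0.1, and 352 to 5912 with an array left out. The cause of these shifts was not tested. Each array has 1 replicate number for its 2 livers and compares them directly. With the channels as independent samples the counts were 4 higher and 2 lower, where 3.49% and 6.62% of all genes were called. They were also 4 and 2 with ratios corrected for probe GC content within each array, where the shares were 5.38% and 7.42%. Timd4 is limited by its signal, near background in the control livers.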

Other observations

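Vsig4 binds C3 fragments. Of 10 other genes of complement reception and C3 clearance tested, 5 fell, with a median of -0.56, where 6.08% of all genes were called lower. C3 itself had the smallest p (log2 ratio -1.04 ± 0.14, SE, n = 4; adjusted p = 0.00690 by limma), but its other probe read 0.61 and its adjusted p reached 0.544 over 19 alternatives. C3ar1, the receptor for the C3a fragment, fell by 1.23 ± 0.18 and Itgb2, the integrin chain that pairs with Itgam, fell by 1.38 ± 0.26 on the log2 scale (SE, n = 4 each; adjusted p = 0.00841 and 0.0203 by limma). Both were lost without array 1 (adjusted p = 0.0611 and 0.119) and Itgb2 also without array 2 (0.0890), when 0 and 1 of the list were called (6 and 5 at an unadjusted p under 0.05). Of all genes, 1.15% and 1.24% were then called lower.

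Cd5l is a target of LXR, and 3 of 8 LXR target genes fell, Cd5l itself being one, with a median of -0.31. Over all genes tested, 6.08% were called lower. Apoe, the lipoprotein ligand secreted by macrophages and hepatocytes, fell by 1.88 ± 0.13 on the log2 scale (SE, n = 4; adjusted p = 0.00125 by limma), with ratios of -2.03, -1.75, -1.91 and -1.84 and an adjusted p of at most 0.0132 in any alternative. Abcg1, a cholesterol exporter, fell by 1.13 ± 0.19 (SE, n = 4; adjusted p = 0.0140 by limma) and was lost without array 1 or array 2 (adjusted p = 0.0974 and 0.0840). The genes of both lists were named after their values were seen.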
